A study of Homo sapiens with 4 samples.

Results

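The extracellular matrix, integrin and matrix protease genes were followed in Huh7 and HepG2 after silencing of COP1. These are 2 human liver cancer lines that the study describes as hepatocellular carcinoma (HCC) lines. The 39 genes were a fixed list of collagens, laminin chains, basement membrane linkers, matrix glycoproteins, integrin subunits, matrix metalloproteinases (MMPs) and tissue inhibitors of metalloproteinases (TIMPs). They were taken by gene number from 46427 numbered genes, and all 39 were found in every library. Each line received NC-siRNA or COP1-siRNA, and poly(A) RNA was sequenced with 1 library for each of these 4 groups. NC-siRNA is a negative control siRNA, and COP1-siRNA targets the mRNA of COP1, an E3 ubiquitin ligase whose known substrates include c-Jun and ETS family factors. Each siRNA was given at 20 nM for a transfection of 5 h, and the cells were harvested at 48 h. The labels give all 4 libraries the same batch. The labels name no other cell type in these cultures.

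Basement membranes are sheets of laminin and type IV collagen that are tied together by nidogen, perlecan and agrin. Cells hold on to them, and to fibronectin, through integrins, which are pairs of one alpha and one beta chain, and the beta chain ITGB1 pairs with most of the alpha chains listed here. MMPs cut matrix proteins, those of the membrane type do so at the cell surface, and TIMPs block MMPs. In liver the fibrillar matrix comes mainly from stellate cells, while hepatocytes are a major source of fibronectin, and HCC cells can make much of their own basement membrane.

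Levels are given as TPM, the share of a transcript among 1000000 transcripts. TPM is scaled for gene length and for the library total, so that genes can be compared with each other. The knockdown change is the log2 ratio of TPM + 1, COP1-siRNA over NC-siRNA, within a line, and the line difference is log2 of the ratio of mean TPM + 1, HepG2 over Huh7. A gene was measured in a knockdown comparison if it reached 1 TPM in at least 1 of its 2 libraries. No group has a second library, and no test between the siRNAs was run. Pairs of values stand in the order NC-siRNA, COP1-siRNA. The number of reads is unknown, and only the relative depth could be had, at 1 and 1.13 in Huh7 and at 0.873 and 1.11 in HepG2. COP1 itself was at 19.7 and 6.18 TPM in Huh7, a change of -1.53, and at 26.9 and 16.1 TPM in HepG2, a change of -0.71. From read coverage scaled to equal depth, again with 1 added, its changes were -1.13 and -0.56. The added 1 understates the change of genes with low values, so these cannot be read as a smaller knockdown. The plain TPM ratio of COP1 in HepG2 was 0.599, so its mRNA fell by less than 2-fold there. All 6 hepatocyte markers, among them ALB and AFP, reached 1 TPM in every library, with summed levels of 15029 to 17050 TPM in Huh7 and 2542 to 2890 TPM in HepG2. Of the 6 stellate cell or fibroblast markers, DCN was at 0 in every library and PDGFRB reached at most 0.187 TPM, while LUM was at 121 TPM in both Huh7 libraries and ACTA2 was at 11.1 and 15.4 TPM in HepG2. The summed level of that list was 124 TPM in both Huh7 libraries and 12.1 to 16.3 TPM in HepG2, so it moved with the line, and its part in the line differences was not tested. Of 4 endothelial markers PECAM1 alone reached 1 TPM, at 5.08 and 7.36 TPM in Huh7, with a summed level of 5.08 to 7.36 TPM there and 0.275 to 0.416 TPM in HepG2. Of 4 leukocyte markers PTPRC and CD3E were at 0 throughout, and the summed level was 58.6 to 62.7 TPM in Huh7 and 15.9 to 17.8 TPM in HepG2, most of it from CD68.

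One pair of the genes shares a promoter, which is shown because both were far higher in HepG2 than in Huh7. COL4A1 and COL4A2 encode the alpha-1 and alpha-2 chains that make up the common form of type IV collagen. They lie head to head on chromosome 13, COL4A1 at chr13:110148963-110307157 on the minus strand and COL4A2 at chr13:110307284-110513209 on the plus strand. Between the starts lie 126 bases at chr13:110307158-110307283 (GRCh38.p14, plus strand, RefSeq), of which 80.2% are G or C. In the stretch below the capitals mark the CCAAT box (CCAAT) and the GC box (GGGCGG), each found 1 time when both strands were searched.
COL4A1-COL4A2 promoter: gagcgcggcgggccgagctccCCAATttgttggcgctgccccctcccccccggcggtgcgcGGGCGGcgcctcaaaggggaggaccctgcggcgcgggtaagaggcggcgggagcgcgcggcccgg

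A second promoter is shown for MMP24, a membrane-type metalloproteinase with the highest knockdown change of the 39 genes in each line. In Huh7 this rank did not hold on every scale. From coverage at equal depth SPARC (0.52) and LAMB3 (0.48) were above MMP24 (0.44) there. From FPKM SPARC (0.34) was above MMP24 (0.31). The study had already listed MMP24 as up-regulated in both lines from these same data, so its rank here is no separate evidence. The gene lies at chr20:35226690-35276998 on the plus strand, and the 250 bases before its start are at chr20:35226440-35226689 (GRCh38.p14, plus strand, RefSeq). They are 77.6% G or C and hold 3 GC boxes, in capitals, read on either strand.
MMP24 promoter: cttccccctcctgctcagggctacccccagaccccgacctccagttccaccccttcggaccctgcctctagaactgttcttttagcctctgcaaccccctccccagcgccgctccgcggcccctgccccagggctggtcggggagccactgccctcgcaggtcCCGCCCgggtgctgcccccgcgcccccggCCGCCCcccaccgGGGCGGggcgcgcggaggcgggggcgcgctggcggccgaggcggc

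Promoter windows of 250 bases before to 50 bases after a start were matched for 29 of the 39 genes, with 37 windows in all. They were searched on both strands for TGANTCA, the site of AP-1, the factor that c-Jun forms with FOS family proteins. It was in 3 of the 37 windows (8.11%), beside 7.71% of all 35116 windows, so it was about as common in these genes as elsewhere. The matches were in ITGA5, the fibronectin receptor alpha chain, and in LAMA3 and LAMB3, 2 chains of the epithelial laminin of hemidesmosomes. They are shown here, with 12 bases on each side in the direction of the gene, because c-Jun is a known substrate of COP1. The site (capitals) ended at the start base itself in ITGA5, at chr12:54419254-54419284. In LAMB3 it lay 67 to 61 bases before a start inside the gene, at chr1:209651423-209651453. LAMA3 had a pair, 125 to 119 bases before a start inside the gene at chr18:23872883-23872913 and 69 to 63 bases before it at chr18:23872939-23872969.
ITGA5 AP-1: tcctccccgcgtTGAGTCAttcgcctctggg
LAMB3 AP-1: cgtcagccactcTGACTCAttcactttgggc
LAMA3 AP-1 far: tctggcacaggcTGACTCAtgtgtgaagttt
LAMA3 AP-1 near: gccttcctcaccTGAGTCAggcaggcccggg
The GC box (GGGCGG) was in 30 of the 37 windows (81.1%) and in 45.0% of all windows, the CCAAT box in 11 (29.7%) and 34.6%, and the TATA box (TATAAA) in 3 (8.11%) and 11.5%. A match is only the letters in this window, and nothing about binding was measured.

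These genes differed between the lines far more than they did between the siRNAs. A gene was called between lines when both libraries of one line were at least 2-fold above both libraries of the other on the TPM + 1 scale. By that rule 16 of the 39 genes were higher in Huh7, where 11.3% of the 15486 genes measured were called, and 8 were higher in HepG2, where 20.9% were called. Another 11 were not called, and 4 (TNC, ITGB3, ITGB8 and MMP2) stayed under 1 TPM in every library. The median line difference was -0.79 over the 35 genes measured and 0.35 over all genes, so that relative to all genes the matrix genes lay at -1.15 on the log2 scale. With median-of-ratios scaling of the libraries the median of all genes moved to 0.12 and that of the matrix genes to -1.09, which is -1.21 relative to all genes. All genes then split into 16.8% higher in HepG2 and 14.1% higher in Huh7, and the matrix genes into 7 and 16. The 2 libraries of a line differ in siRNA and are not replicates, and 2 libraries against 2 cannot give a two-sided exact permutation p below 0.333. Line, culture and library cannot be told apart.

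**Figure D1:**
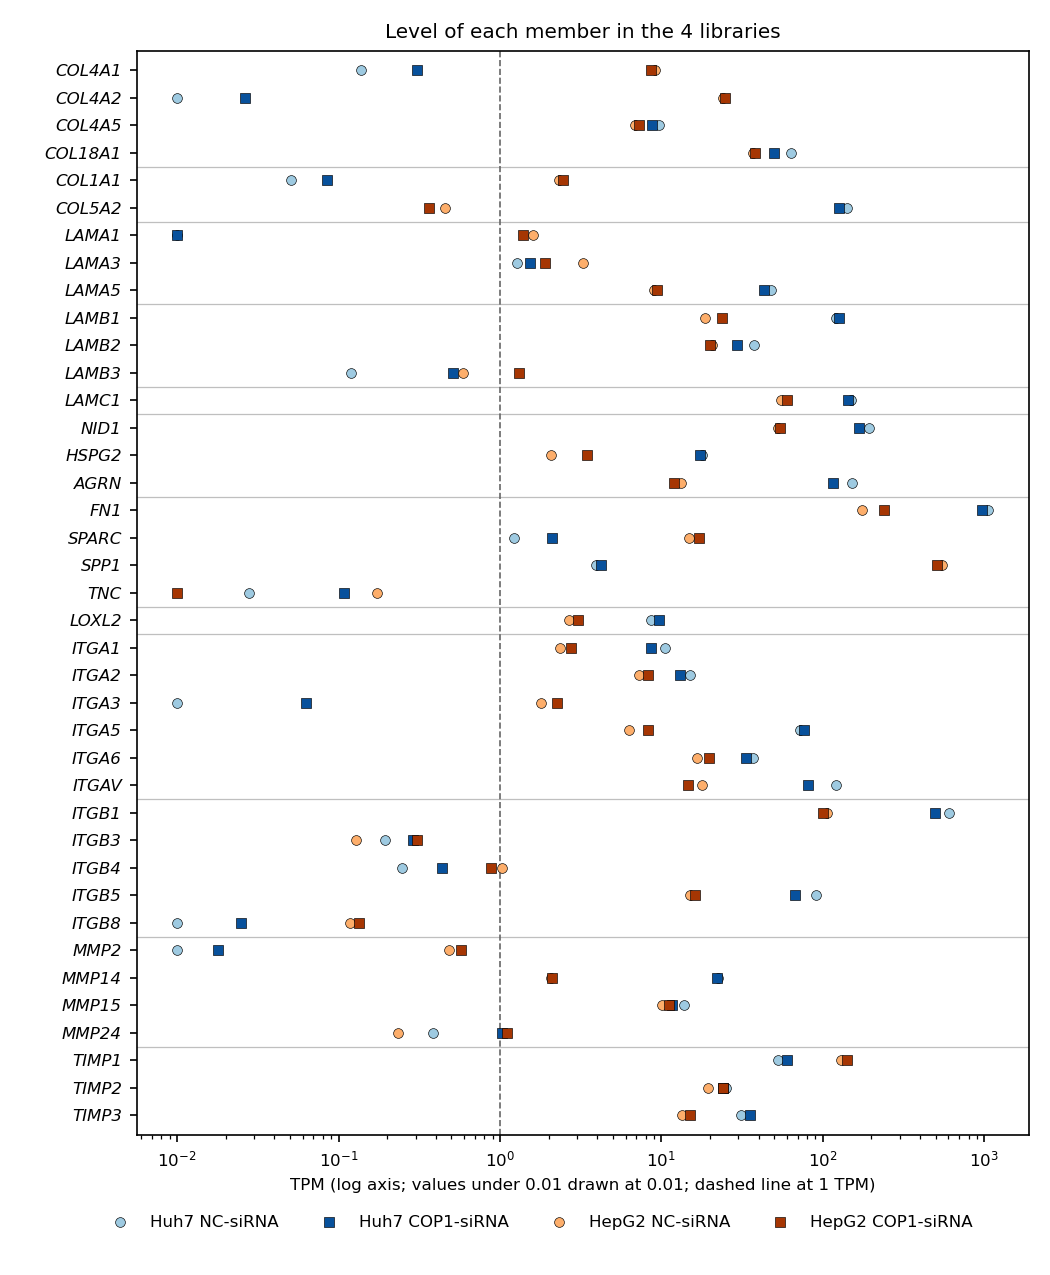
TPM of each of the 39 genes (rows, in blocks by role) in the 4 libraries on a log axis, with circles for NC-siRNA and squares for COP1-siRNA, blue for Huh7 and orange for HepG2, and values under 0.01 drawn at 0.01. The circle and square of one line mostly touch, while the blue and orange pairs of FN1, ITGB1, AGRN, COL5A2, COL4A2 and SPP1 lie far apart.

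The 39 genes together took 0.311% and 0.274% of the library TPM in Huh7 with NC-siRNA and COP1-siRNA, and 0.134% and 0.141% in HepG2. Their summed level was 3108 and 2737 TPM in Huh7, against 1343 and 1406 TPM in HepG2. FN1 alone held 34.2% and 35.2% of that sum in Huh7, and 13.1% and 16.9% in HepG2. The number of genes under 1 TPM was 12 and 11 in the Huh7 libraries and 7 and 6 in those of HepG2, so more of the genes reached 1 TPM in HepG2, at a lower summed level. Over all genes more were also measured in HepG2, at 14456 that reached 1 TPM in at least 1 library against 13000 in Huh7. In bulk RNA, fewer cells with a transcript and less of it per cell cannot be told apart.

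**Figure D2:**
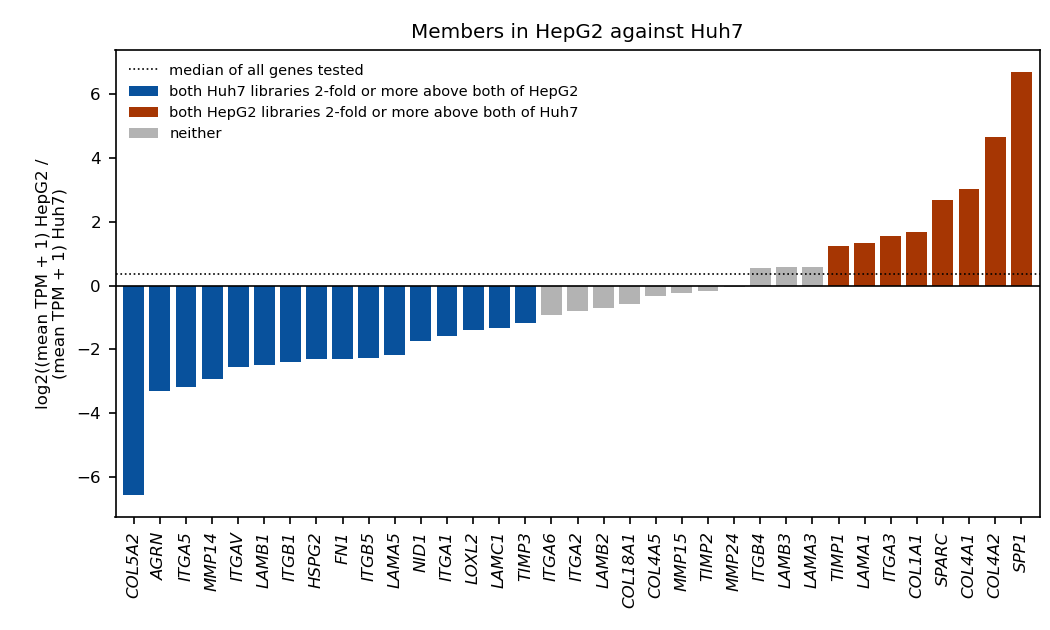
Line difference of the 35 matrix genes measured, as log2 of mean TPM + 1 in HepG2 over Huh7, in rising order, with bars from 0 and the median of all genes dotted at 0.35. Bars run from -6.57 for COL5A2 to 6.70 for SPP1, with 16 genes called higher in Huh7 (blue), 8 called higher in HepG2 (orange) and 11 not called (grey).

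Differences between the siRNAs were small. In Huh7, 28 of the 39 genes were measured, and 0 were at least 2-fold higher or lower, beside 0.638% of 13000 genes higher and 0.446% lower. At 1.5-fold the count was again 0, beside 2.8% higher and 2.68% lower among all genes. In HepG2, 34 were measured and 0 passed 2-fold, beside 0.54% of 14456 genes higher and 0.394% lower. At 1.5-fold 1 gene, MMP24, was higher and 0 were lower, beside 2.56% higher and 1.87% lower among all genes. At these shares of all genes, a list of this size would hold under 1 gene in each direction. No test was run, and the smallest change that these libraries could show is unknown.

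The small changes leaned in opposite directions in the lines. In Huh7, 19 of the 28 genes measured were lower with COP1-siRNA (67.9%, beside 50.1% of all genes), or 16 with FPKM, where HSPG2, MMP14 and TIMP2 changed sign. With FPKM the median of all genes was itself 0.045, and HSPG2 (0.022), MMP14 (0.043) and TIMP2 (0.0043) lay below it. From TPM the median change in Huh7 was -0.13 (all genes -0.00083), and 0 when all 39 genes were kept. In HepG2, 25 of the 34 genes measured were higher and 9 were lower (26.5%, beside 51.7% of all genes lower), with a median of 0.11 (all genes -0.0080). Among genes at 10 TPM or more in at least 1 library of the line, 18 of 22 were lower in Huh7 (81.8%, beside 52.9% of all such genes), and 5 of 18 were lower in HepG2 (27.8%, beside 52.6%). Of the 27 genes measured in both lines, 14 were lower in Huh7 and higher in HepG2, 2 had the reverse pattern, 7 were higher in both and 4 were lower in both. MMP24 in both lines and LAMB3 in HepG2 reached 1 TPM through the COP1-siRNA library alone, and ITGB4 in HepG2 through the NC-siRNA library alone, so their direction follows from the minimum. The difference between the lines was not tested, and each line rests on 1 pair of libraries. Most of these changes lay inside the 5th to 95th percentile of all genes, -0.47 to 0.45 in Huh7 and -0.41 to 0.43 in HepG2. Outside it were ITGAV below and SPARC and MMP24 above in Huh7, and LAMA3 below and LAMB3, HSPG2, FN1 and MMP24 above in HepG2.

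**Figure D3:**
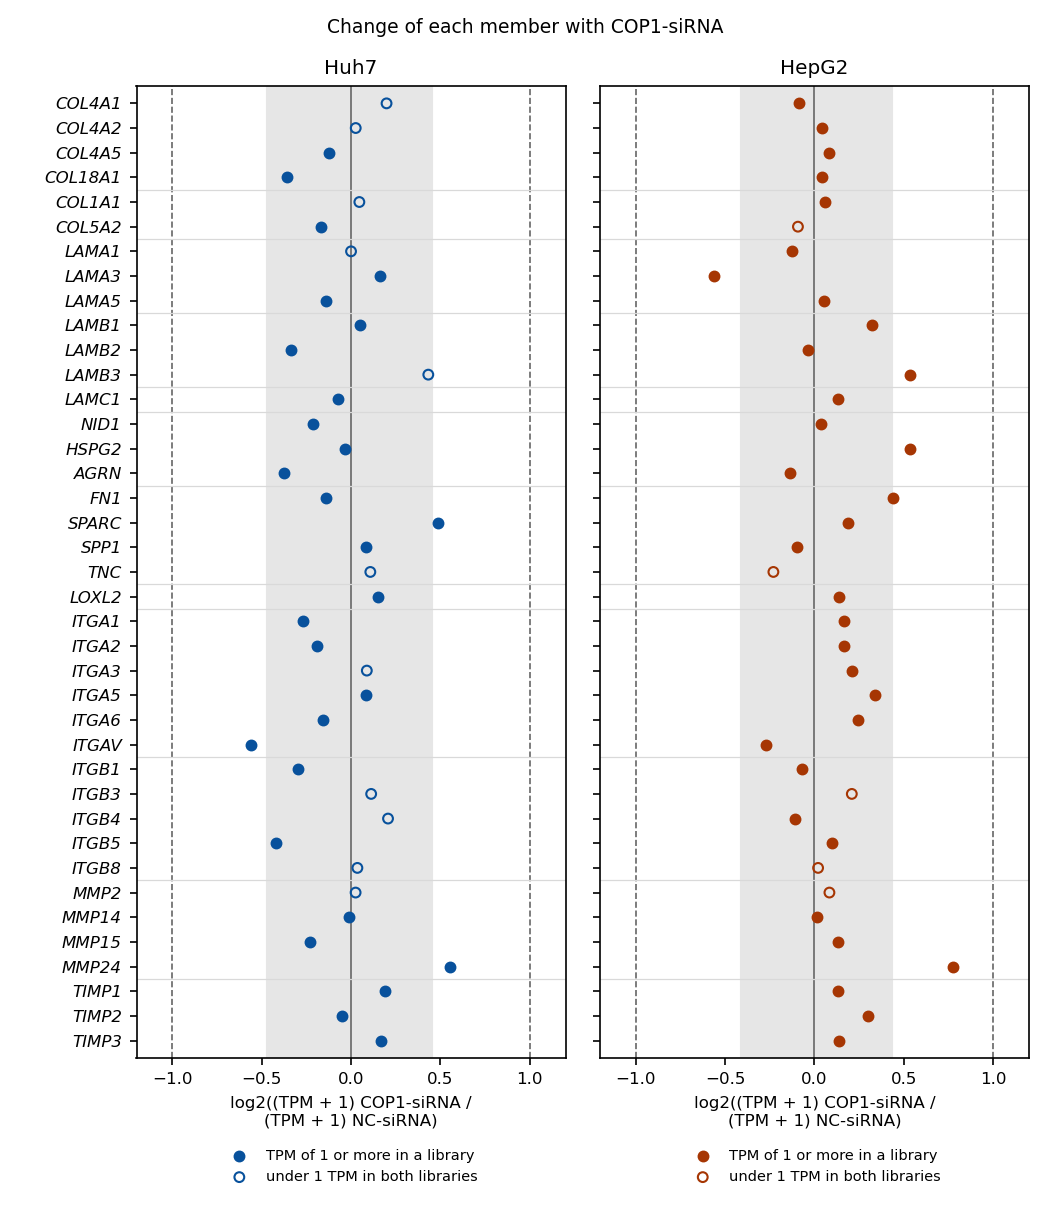
Knockdown change of each gene in Huh7 (left, blue) and HepG2 (right, orange), as log2 of TPM + 1 with COP1-siRNA over NC-siRNA. Open points stayed under 1 TPM in both libraries, the grey band is the 5th to 95th percentile of all genes (-0.47 to 0.45 and -0.41 to 0.43), the dashed lines are 2-fold, and no point reaches them, with MMP24 the farthest to the right at 0.56 and 0.78.

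Among the collagens, the chains of type IV split between the lines. COL4A2 was at 0.00805 and 0.0265 TPM in Huh7 and at 24.2 and 24.9 TPM in HepG2. COL4A1 was at 0.138 and 0.306 TPM in Huh7 and at 9.17 and 8.58 TPM in HepG2. Both genes were thus close to silent in Huh7 and present in HepG2, with line differences of 4.65 for COL4A2 and 3.01 for COL4A1, and knockdown changes of 0.04 and -0.09 in HepG2. COL4A5, a chain of the type IV network of mature basement membranes, was present in both lines at 9.63 and 8.76 TPM in Huh7 and 6.86 and 7.30 TPM in HepG2, and its line difference of -0.34 was not called. COL18A1, whose C-terminal fragment is endostatin, was the most abundant basement membrane collagen, at 64.0 and 49.7 TPM in Huh7 and 37.0 and 38.1 TPM in HepG2. Its knockdown change was -0.36 in Huh7 and 0.04 in HepG2.

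The fibrillar collagens were called in opposite directions. COL5A2, a chain of the type V collagen that regulates fibril width, lies at chr2:189031898-189225301 and was at 141 and 125 TPM in Huh7, against 0.454 and 0.364 TPM in HepG2. With a line difference of -6.57 it was the matrix gene that most favored Huh7. COL1A1, the main chain of type I collagen, was at 0.0509 and 0.0853 TPM in Huh7 and at 2.33 and 2.47 TPM in HepG2, a line difference of 1.67. The 6 collagens summed to 214 and 184 TPM in Huh7 and 80.0 and 81.8 TPM in HepG2, and most of the Huh7 sum was COL5A2.

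The laminin chains of the form with alpha-5, beta-1 and gamma-1 were higher in Huh7. LAMC1, the gamma-1 chain shared by most laminins, was at 149.8 and 143 TPM in Huh7 and at 54.8 and 60.2 TPM in HepG2, a line difference of -1.33. LAMB1, the beta-1 chain, was at 121 and 126 TPM in Huh7 and at 18.7 and 23.7 TPM in HepG2, a line difference of -2.49. LAMA5, the alpha-5 chain, was at 47.5 and 43.1 TPM in Huh7 and at 8.96 and 9.33 TPM in HepG2, a line difference of -2.19. All 3 were called higher in Huh7, and their knockdown changes were -0.14 to 0.05 in Huh7, and in HepG2 they were 0.05 to 0.32. LAMB2, the beta-2 chain, was at 37.6 and 29.6 TPM in Huh7 and at 20.6 and 20.1 TPM in HepG2 and was not called. The 2 beta chains were therefore balanced differently, with 3.23 and 4.24 times as much LAMB1 as LAMB2 in Huh7 and 0.909 and 1.18 times in HepG2.

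The remaining laminin chains were scarce. LAMA1, an alpha chain of early embryonic basement membranes, was listed at 0 in both Huh7 libraries and was at 1.60 and 1.39 TPM in HepG2, where it was called higher. LAMB3, the beta-3 chain of epithelial laminin, was at 0.120 and 0.512 TPM in Huh7 and at 0.593 and 1.30 TPM in HepG2. In both lines the COP1-siRNA library was the higher one, by 0.43 in Huh7, where LAMB3 did not reach 1 TPM, and by 0.53 in HepG2, where it did so only with COP1-siRNA and so had to be higher. LAMA3, the alpha-3 chain of the same laminin, was at 1.27 and 1.54 TPM in Huh7, a change of 0.16, and at 3.27 and 1.90 TPM in HepG2. Its change in HepG2 was -0.56, but the mean read coverage of the gene was 3.69 with NC-siRNA and 3.82 with COP1-siRNA, and the change computed from coverage at equal depth was -0.17. The coverage per TPM of LAMA3 was 1.13 with NC-siRNA and 2.01 with COP1-siRNA in HepG2, so its TPM and its coverage do not give the same picture. The AP-1 matches shown above lie at LAMA3, LAMB3 and ITGA5. LAMA3 and LAMB3 had the same sign in Huh7 and opposite signs in HepG2, where the minimum fixed the sign of LAMB3. Any link of these matches to the changes was not tested.

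The linkers of the basement membrane all favored Huh7. NID1, nidogen-1, which bridges laminin and type IV collagen, was at 193 and 167 TPM in Huh7 and at 52.7 and 54.1 TPM in HepG2, a line difference of -1.74. AGRN, the heparan sulfate proteoglycan agrin, was at 151 and 116 TPM in Huh7 and at 13.3 and 11.99 TPM in HepG2, a line difference of -3.30 and a ratio of mean TPM of 10.6. HSPG2, the proteoglycan perlecan, was at 17.8 and 17.4 TPM in Huh7 and at 2.08 and 3.46 TPM in HepG2, a line difference of -2.31. All 3 were called higher in Huh7. With COP1-siRNA, AGRN was lower in both lines (-0.38 and -0.14), and HSPG2 was at -0.03 in Huh7 and 0.54 in HepG2.

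Fibronectin and osteopontin were the most abundant matrix transcripts, each in a different line. FN1, fibronectin, lies at chr2:215360862-215436167 and was at 1062 and 965 TPM in Huh7 and at 175 and 238 TPM in HepG2, a line difference of -2.29. SPP1, osteopontin, a secreted ligand of integrins of the alpha-V type and of CD44, lies at chr4:87975650-87983411 and was at 3.94 and 4.23 TPM in Huh7 and at 544 and 509 TPM in HepG2. Its line difference was 6.70, with a ratio of mean TPM of 129. HepG2 thus held 3.10 and 2.14 times as much SPP1 as FN1, while Huh7 held 269.8 and 228 times as much FN1 as SPP1. FN1 was one of the genes outside the central range in HepG2, where it was higher by 0.44 with COP1-siRNA, and it was at -0.14 in Huh7.

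SPARC, a collagen-binding glycoprotein of remodeling matrix, also favored HepG2. It was at 1.22 and 2.11 TPM in Huh7 and at 14.9 and 17.1 TPM in HepG2, a line difference of 2.67. It was higher with COP1-siRNA by 0.49 in Huh7 and by 0.19 in HepG2. TNC, tenascin-C, stayed at or under 0.173 TPM in all 4 libraries. LOXL2, a lysyl oxidase that cross-links collagen, was at 8.596 and 9.64 TPM in Huh7 and at 2.69 and 3.05 TPM in HepG2, and was called higher in Huh7 with a line difference of -1.39.

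Among the integrin receptors, ITGB1 outweighed every other chain in both lines. It encodes the beta-1 chain, lies at chr10:32900318-32958230, and was at 607 and 493 TPM in Huh7 and at 106 and 101 TPM in HepG2, a line difference of -2.40. ITGB5, the beta-5 chain that pairs with alpha-V, was at 90.4 and 67.3 TPM in Huh7 and at 15.0 and 16.1 TPM in HepG2, a line difference of -2.27. Both were higher in Huh7 by a like factor, so their ratio stayed between 6.24 and 7.33 in all 4 libraries. ITGB1 was also 1.80 to 2.38 times the sum of the 6 alpha chains in every library. Of the other beta chains, ITGB4, the hemidesmosome partner of alpha-6, was at 0.247 and 0.439 TPM in Huh7 and at 1.03 and 0.881 TPM in HepG2, while ITGB3 and ITGB8 stayed at or under 0.305 TPM.

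The alpha chains of the fibronectin and vitronectin receptors favored Huh7. ITGAV, alpha-V, was at 120.4 and 81.4 TPM in Huh7 and at 17.9 and 14.7 TPM in HepG2, a line difference of -2.56. ITGA5, alpha-5, was at 72.1 and 76.5 TPM in Huh7 and at 6.31 and 8.25 TPM in HepG2, a line difference of -3.19. ITGA1, a collagen receptor chain, was at 10.6 and 8.61 TPM in Huh7 and at 2.34 and 2.74 TPM in HepG2, a line difference of -1.58. All 3 were called higher in Huh7. ITGA6, a laminin receptor chain, was at 37.2 and 33.2 TPM in Huh7 and at 16.6 and 19.8 TPM in HepG2, and with ITGA2, a collagen receptor chain at 15.1 and 13.1 TPM against 7.23 and 8.24 TPM, it was not called. ITGA3, another laminin receptor chain, went the other way, at 0 and 0.0631 TPM in Huh7 and 1.81 and 2.25 TPM in HepG2, a line difference of 1.55.

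With COP1-siRNA the 2 alpha chains of the fibronectin receptors parted. ITGAV was lower in both lines, at -0.56 in Huh7, the lowest change of the 39 genes there, and at -0.27 in HepG2, the lowest there after LAMA3. ITGA5 was at 0.08 in Huh7 and 0.34 in HepG2. The ratio of ITGAV to ITGA5 was accordingly 1.67 with NC-siRNA and 1.06 with COP1-siRNA in Huh7, and 2.84 and 1.78 in HepG2. ITGB5 and ITGB1 were at -0.42 and -0.30 in Huh7, and at 0.10 and -0.07 in HepG2. The 11 integrin chains summed to 953 and 774 TPM in Huh7, and to 174 TPM in both HepG2 libraries.

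Of the metalloproteinases, the membrane-type MMP14 and MMP15 carried most of the level. MMP14, which activates MMP2 and cuts collagen at the cell surface, was at 22.3 and 22.1 TPM in Huh7 and at 2.06 and 2.097 TPM in HepG2, a line difference of -2.91. MMP15 was at 13.8 and 11.6 TPM in Huh7 and at 10.1 and 11.2 TPM in HepG2, and was not called. MMP14 hardly moved with the siRNA, at -0.01 and 0.02. MMP2, the secreted gelatinase that MMP14 activates, was at 0 and 0.0178 TPM in Huh7 and at 0.483 and 0.572 TPM in HepG2, so that it stayed under 1 TPM in both.

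MMP24, which cuts N-cadherin at neural cell contacts, was the one gene of the 39 past 1.5-fold, and it was so in HepG2 only. Its level was 0.384 and 1.03 TPM in Huh7 and 0.232 and 1.11 TPM in HepG2. The COP1-siRNA library was the higher in each line, with changes of 0.56 and 0.78 for Huh7 and HepG2, while the plain ratio of TPM was 2.69 and 4.78. The gene passed the 1 TPM minimum only through its COP1-siRNA libraries, so among the genes measured it had to be higher. Its mean read coverage was 0.580 and 1.84 in Huh7 and 0.326 and 1.87 in HepG2, which is at most about 1.87 reads over each base. From coverage at equal depth the changes were 0.44 and 0.578, and from FPKM they were 0.31 and 0.42, with 1 added in both. None of these reached 1.5-fold. The added 1 understates the change of genes with low values, so these changes cannot be set against the plain ratios of TPM. A longer antisense gene across MMP24 stayed at or under 0.276 TPM. A shorter one, MMP24OS, overlaps 647 bases of MMP24 on the opposite strand and was at 23.5 and 19.5 TPM in Huh7 and 33.1 and 34.8 TPM in HepG2. The library kit keeps the strand, but the sources do not say whether the counting used it, and the part of antisense reads in the MMP24 level was not tested. MMP24OS was at -0.26 in Huh7 and 0.07 in HepG2 with COP1-siRNA, while MMP24 was at 0.56 and 0.78.

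The summed TPM of the 3 inhibitors was above that of the 4 proteases in every library. TIMP1, the secreted inhibitor of most MMPs, was at 52.5 and 60.1 TPM in Huh7 and at 129 and 142 TPM in HepG2, a line difference of 1.25. TIMP3, which is held in the matrix, was at 31.3 and 35.2 TPM in Huh7 and at 13.5 and 15.0 TPM in HepG2, a line difference of -1.17. These 2 were called in opposite directions, and TIMP2, which also helps MMP14 to activate MMP2, was not called at 25.0 and 24.1 TPM against 19.3 and 24.0 TPM. With median-of-ratios scaling the line difference of TIMP1 was 0.999, and TIMP1 was no longer called. TIMP1 was 2.35 and 2.72 times MMP14 in Huh7 and 62.5 and 67.5 times in HepG2. These are ratios of RNA levels, and they do not show that TIMP1 acts on MMP14. Inhibition of MMP14 or of any other protease was not measured. The 3 inhibitors summed to 109 and 119 TPM in Huh7 and to 162 and 181 TPM in HepG2, and the 4 metalloproteinases to 36.5 and 34.8 TPM and to 12.9 and 15.0 TPM. With COP1-siRNA, TIMP1 and TIMP3 were at 0.19 and 0.16 in Huh7 and 0.13 and 0.14 in HepG2, and TIMP2 was at -0.05 and 0.30.

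Changes computed from the read coverage of a gene, which does not depend on the transcript lengths that enter TPM, lay close to those from TPM for most of the set. LAMA3 in HepG2 was the gene with the widest gap, at -0.56 from TPM and -0.17 from coverage. A further limit is shared sequence on the genome. Of the 39 genes, 23 overlap another gene, and 5 overlap one that reached 1 TPM in some library: COL18A1, ITGB4, MMP24 and TIMP1 on the opposite strand and ITGA1 on the same strand. ITGB4 lies over GALK1, which was at 25.1 to 32.4 TPM, and the whole of PELO, at 17.9 to 26.7 TPM, falls within ITGA1. How reads were divided between such genes was not given in the sources used here, so the levels of these 5 are uncertain.

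**Figure D4:**
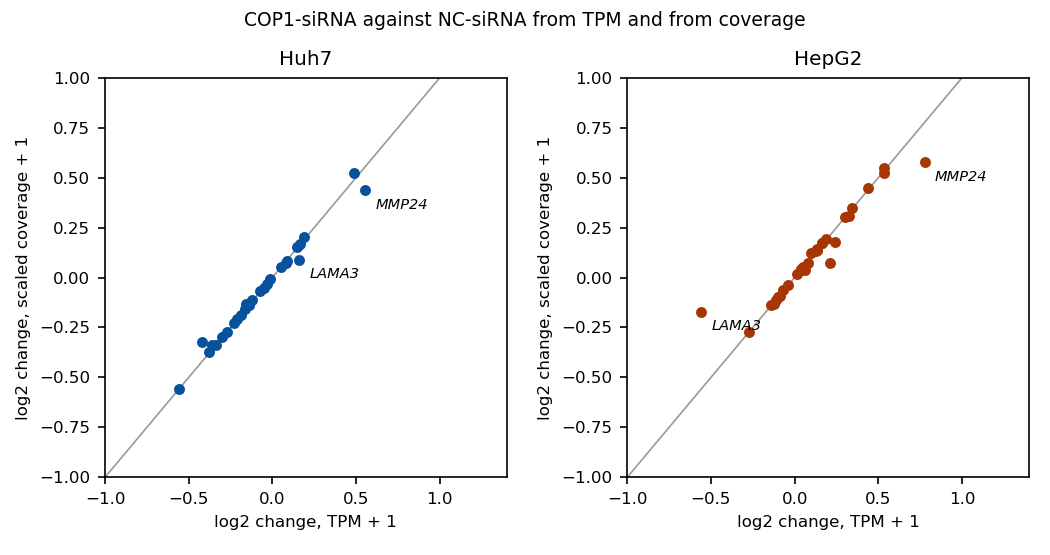
Knockdown change of each matrix gene measured in Huh7 (left) and HepG2 (right), with the change from TPM + 1 on the horizontal axis and that from coverage at equal depth on the TPM scale + 1 on the vertical axis, both log2, and the line of equality in grey. The points farthest from the line in HepG2 are LAMA3 (-0.56 against -0.17), MMP24 (0.78 against 0.58) and ITGA3 (0.21 against 0.07), and in Huh7 the farthest is MMP24 (0.56 against 0.44).

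A wider list of 99 other matrix, integrin, protease and adhesion genes was measured in the same way. In Huh7, 54 were measured, with 0 at least 2-fold higher, 1 (1.85%, beside 0.446% of all genes) at least 2-fold lower and a median change of -0.0062 (all genes -0.00083). In HepG2, 62 were measured, with 1 (1.61%, beside 0.54% of all genes) at least 2-fold higher, 0 lower and a median of 0.04 (all genes -0.0080). The 2 genes were both syndecans, the transmembrane proteoglycans that act as co-receptors for matrix. SDC1 was at 99.0 and 43.2 TPM in Huh7 and at 29.4 and 25.1 TPM in HepG2, a change of -1.18 in Huh7 and -0.22 in HepG2. SDC4 was at 207 and 262 TPM in Huh7 and at 35.6 and 77.1 TPM in HepG2, a change of 0.34 and 1.10. Each syndecan had the same sign in both lines and passed 2-fold in 1 of them, and the difference between lines was not tested. Between the lines, 23 of the 67 measured were higher in Huh7 (34.3%, beside 11.3% of all genes) and 17 were higher in HepG2 (25.4%, beside 20.9%), with a median line difference of -0.60 (all genes 0.35).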

How the data were processed

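RNA of Huh7 and HepG2 cells with NC-siRNA or COP1-siRNA was sequenced with a stranded poly(A) kit, 1 library per group. The submitters' processing notes name FastQC 0.11.7, Trimmomatic 0.38, HISAT2 2.1.0, StringTie 2.1.3b and edgeR, with GRCh38, and the strand setting of the counting is not given in the sources used here. For each gene number the authors deposited the coverage (mean reads per base, not scaled for depth), the FPKM and the TPM, which sums to 1000000 per library. No counts are in these tables, so no count model was fitted and the precision of a value is unknown. Relative depth was the ratio of coverage to FPKM. Coverage at equal depth was the coverage divided by the median coverage per TPM of its library.

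Gene names are blank in the tables. Genes were therefore found by gene number through RefSeq (GRCh38.p14), which held 96.3% of the 46427 numbers and all 39 genes, each starting within 1000 bases of the position in the tables. Rows of one gene number were summed (51 numbers). The genes and lists were chosen with earlier results of these data known. Genes were kept that reached 1 TPM in a library compared, and log2 ratios used a pseudocount of 1, which understates the change of low genes. Thresholds were 2-fold and 1.5-fold. No test between conditions was run, as each has 1 library, and a paired test over the 2 lines was not run. All 39 genes could be named. Values in every library are given for MMP24, for genes past 1.5-fold or called between lines and for the most abundant gene of each role, and others were added for completeness. Of the wider list, those past 2-fold were named, and others, among them COL5A1 and COL5A3, were named after their values were seen. Alternatives were a pseudocount of 0.1, FPKM, coverage, scaling by median of ratios, a minimum TPM of 5, none at all and a 1.5-fold threshold. The computation was tested on simulated data. Python 3.11.15, numpy 2.4.6, pandas 2.3.3 and matplotlib 3.10.9 were used. Promoter sequences are from RefSeq.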

Additional observations from a re-analysis of the deposited data

Results flagged for a closer look

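THBS1, thrombospondin-1, a matrix glycoprotein of the wider list that was chosen after its values were seen, moved in opposite directions in the lines. Its level was 97.2 and 75.3 TPM with NC-siRNA and COP1-siRNA in Huh7, a change of -0.36 on the log2(TPM + 1) scale. In HepG2 it was at 3.54 and 7.17 TPM, a change of 0.85. Each change was at least 1.25-fold, each line has 1 library per siRNA, and the difference between the lines was not tested.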

How the results depend on the processing

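No gene called between lines changed sign under the alternatives, but not every call held. With median-of-ratios scaling TIMP1 was at 0.999 in place of 1.25 and was not called, and 7 genes were higher in HepG2, against 8. The size moved by over 1.25-fold for 11 of 35 genes with a pseudocount of 0.1 and for 10 with FPKM. With that pseudocount COL4A2 was at 7.72 in place of 4.65, COL4A1 at 4.80 in place of 3.01 (2.12 from coverage) and LAMA1 at 3.99 in place of 1.32. The number higher in HepG2 was 5 with FPKM and 5 at a minimum TPM of 5, against 8, and the median line difference was -1.08 with FPKM, -1.09 with median-of-ratios scaling, -0.58 with no minimum TPM and -1.36 at a minimum of 5, against -0.79. With a pseudocount of 0.1, 1 gene (MMP24) was at least 2-fold higher in Huh7 and 2 (LAMB3 and MMP24) in HepG2, against 0. At 1.5-fold 1 was higher in HepG2. The median change in Huh7 was 0 with no minimum TPM. With FPKM 3 of 28 genes changed sign there, and the median of all genes was 0.045. Over all genes, those past 2-fold in Huh7 were 249 higher and 141 lower with a pseudocount of 0.1, 33 and 24 with FPKM, and 34 and 42 at a minimum TPM of 5, against 83 and 58. In HepG2 they were 227 and 145, 21 and 18, and 29 and 26, against 78 and 57. At 1.5-fold they were 364 and 349 in Huh7, 370 and 270 in HepG2, and between lines 5252 higher in HepG2 and 2691 higher in Huh7, against 3233 and 1757. The pseudocount of 1 was kept with FPKM and coverage, and it understates the change of genes with low values on those scales. Its part in these shifts was not tested. The labels give no replicate numbers, a paired fit over the 2 lines was not run, and no group has a library to spare for leaving 1 out. The number of reads is unknown, so the precision of genes near 1 TPM cannot be given.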

Other observations

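Partners of the matrix genes that were not on the list of 39 also stood apart between the lines, and they were chosen here after their values were seen. CD44, a receptor for hyaluronan and osteopontin, was at 54.8 and 72.0 TPM in Huh7 with NC-siRNA and COP1-siRNA, and at 0.0961 and 0.128 TPM in HepG2, the line in which SPP1 was at 544 and 509 TPM. VTN, vitronectin, the plasma ligand of integrins with alpha-V, was at 527 and 558 TPM in Huh7 and at 10.7 and 16.4 TPM in HepG2, and so was high in the line with the more ITGAV and ITGB5.

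At 1.5-fold with COP1-siRNA the wider list of 99 genes held 1 higher (1.85%, beside 2.8% of all genes) and 1 lower gene (1.85%, beside 2.68%) in Huh7. In HepG2 it held 3 higher (4.84%, beside 2.56%) and 2 lower (3.23%, beside 1.87%), and these genes are named here after their values were seen. Beside SDC1 and SDC4 these were COL12A1 in Huh7, a fibril-associated collagen, at 1.09 and 3.13 TPM, and in HepG2 the following. THBS1 was at 3.54 and 7.17 TPM there. MMP3, stromelysin-1, was at 0.158 and 1.11 TPM, and passed the 1 TPM minimum through its COP1-siRNA library alone. COL2A1, the chain of cartilage type II collagen, was at 31.8 and 19.9 TPM, and COL6A2, a type VI collagen chain, was at 12.4 and 7.90 TPM.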
